A study of Mus musculus with 35 samples.

Results

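The comparison described here is between striata of 7 HttQ111/+ Hdac2+/+ mice and striata of 8 Htt+/+ Hdac2+/+ mice, chosen by the genotype in the sample labels, and it sets carriers of the HttQ111 allele against non-carriers while Hdac2 is intact. These 15 libraries are part of 35, the other 20 being from mice with Hdac2 deleted in medium-spiny neurons (Hdac2D/D). Every gene of the raw count table that passed a minimum of 6 counts in each library of at least 1 of the 2 groups was tested, which left 17133 of 32863 genes. In carriers of the allele, 38 genes were lower and 31 higher after adjustment for multiple testing. Of these genes, 16 lay on chromosome 17 below 45 Mb, and in 10 of the 16 a set of 2 Htt+/+ mice lay outside the range of the rest. The number of calls ran from 0 to 905 over alternative fits. The lower set includes several genes for signalling and identity of striatal projection neurons, among them Ppp1r1b, Penk, Drd1a, Pde10a, Gpr6 and Rgs9. Other identity genes did not pass in the primary model. None of 16 transcription factors of these neurons passed, and their values were lower in 11 and higher in 5. At a nominal p under 0.05, before adjustment, 7 of them were lower and 4 higher (68.8%, beside 10.9% of all genes tested). Of 11 genes tested for projection neurons with the D1 dopamine receptor, Drd1a alone passed. The higher set includes the synaptic vesicle gene Syp and the surface proteins Cd200, Ildr2 and Dsg2.

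Huntingtin is a large scaffold protein, and an expanded CAG repeat in its gene causes Huntington's disease. The striatum is the region most affected, and within it the medium-spiny neurons (MSNs), which receive cortical and dopamine input and send the output of the striatum by a direct pathway (cells with the D1 dopamine receptor, dynorphin and substance P) and an indirect pathway (cells with the D2 dopamine receptor, the adenosine receptor Adora2a and enkephalin). Dopamine acts in MSNs through cyclic AMP, protein kinase A and the phosphatase inhibitor DARPP-32, and lower levels of these transcripts are a well-known trait of Huntington's disease models.

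The HttQ111 allele is a knock-in of a long CAG repeat into mouse Htt, present here on 1 chromosome. Repeat lengths in the labels were 110 to 140 in carriers and 7 in Htt+/+ mice. Neither group carried the D9-Cre transgene, and all mice are recorded with 2 floxed Hdac2 alleles except 2 Htt+/+ mice with 1 floxed allele, so the word intact refers to undeleted and not to unmodified Hdac2. The floxed line came from a mixed C57BL/6/129SeEv background and, per the study's methods, its backcross to C57BL/6J was not complete before it was crossed with HttQ111 mice. Ages were 21.86 to 22.57 weeks in carriers (4 males, 3 females) and 21.71 to 22.71 weeks in Htt+/+ mice (5 males, 3 females). Mouse identifiers in the labels begin with A, V or Z, and the labels do not say what the letter stands for. Carriers held 2 A, 3 V and 2 Z mice, and the Htt+/+ group 2 A, 5 V and 1 Z. Repeat lengths followed the letter in carriers, with 131 to 140 in V mice against 110 to 111 in A and 111 to 113 in Z mice, so that repeat length and letter cannot be told apart. RNA was extracted on 24, 25 and 27 May, with 3, 2 and 2 carriers and 2, 3 and 3 Htt+/+ mice.

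Gene counts per library ranged from 51532513 to 62299796 with a median of 56708781. Levels are given below in CPM, the count of a gene scaled to a common library total, after TMM scaling, a method that equalizes library composition. Since counts were taken over whole gene intervals, introns included, CPM values compare 1 gene between samples and not genes with each other. Effects are log2 fold changes of carriers over Htt+/+ mice from a model of all 35 libraries with 9 surrogate variables, which are numerical covariates estimated from the counts for unlabelled differences between libraries. A gene is called changed at an adjusted p under 0.05 (edgeR quasi-likelihood test, Benjamini-Hochberg adjustment over all genes tested). Fitted effects can therefore differ from a ratio of the raw levels. The replicates are separate mice. In striatal tissue, fewer cells of a type and less RNA per cell cannot be told apart.

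Between carriers and Htt+/+ mice, 69 of 17133 genes were called (0.403%), with 31 higher (0.181%) and 38 lower (0.222%) in carriers. At a nominal p under 0.05, 1859 genes differed (10.9%), of which 916 were higher (5.35%) and 943 lower (5.50%). Most effects were small. The median size of the log2 fold change was 0.33 over the 69 called genes and 0.0578 over all genes tested, and 50 of the 69 were under 0.5. The levels of the 7 carriers and the 8 Htt+/+ mice did not overlap for 27 genes (0.158%), of which 15 were above and 12 below the Htt+/+ range in carriers. Among the called genes this held for Ppp1r1b, Penk, Drd1a and Dmkn, below, and Amn, above.

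The number of calls depended strongly on the model, from 0 to 905 over the alternatives tried. All 69 genes kept their sign when any 1 of the 15 libraries was left out, and in the 3 edgeR fits to the 15 libraries alone. These fits reuse the libraries in which the genes were called, which favours the same sign. Without the A-letter Htt+/+ mice, described further on, genes such as Gm10260, Cyp4f14 and Rps18 changed sign. In the 15 libraries alone, edgeR called 0 genes with 4 surrogate variables, where 1647 had a nominal p under 0.05 (9.61%), 1 gene without covariates and 273 (1.59%) with sex and ID letter. Without HttQ111/+ replicate 3, which had the longest repeat, 14 genes were called, and without Htt+/+ replicate 2, an A mouse, 174 were called. The names of genes below are those of the primary model, and a call close to the threshold should be read with this in view. Just inside it were Plk5, Timp2 and Neto2, with adjusted p values of 0.0496, 0.0496 and 0.0497. Just outside it were Drd2 and Arpp21, with 0.0501 and 0.0506.

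Htt itself (chromosome 5, 34761740 to 34912534 in GRCm38) was not called. Its level was 181 to 190.5 CPM (median 187) in carriers and 191 to 213 CPM (median 199) in Htt+/+ mice, and these ranges did not overlap. The fitted log2 fold change was -0.05 with a standard error (SE) of 0.0378 (adjusted p = 0.711), and it stayed between -0.13 and -0.03 in the alternatives without passing the threshold in any of them. The counts do not separate the transcripts of the expanded and the normal allele.

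Dopamine and DARPP-32 signalling was the list with the most called genes that fell. Of its 24 members, 4 were called, all lower, and 17 were lower and 1 higher at a nominal p under 0.05. The list's median log2 fold change was -0.16, beside 0.00 over all genes tested. Lists and members were chosen with earlier results of these data known, so counts and medians over the lists are descriptions only. Ppp1r1b encodes DARPP-32, which inhibits protein phosphatase 1 once protein kinase A has phosphorylated it. It had 1016 to 1382 CPM (median 1144) in carriers and 1419.8 to 1817 CPM (median 1575) in Htt+/+ mice. The log2 fold change was -0.28 (SE 0.0522, adjusted p = 0.0121). Every carrier lay below every Htt+/+ mouse.

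Drd1a, the D1 dopamine receptor of direct-pathway MSNs, had 307 to 407 CPM (median 355) in carriers and 417 to 481 CPM (median 452) in Htt+/+ mice, again without overlap. Its log2 fold change was -0.22 (SE 0.0492, adjusted p = 0.0439). Pde10a and Pde1b encode phosphodiesterases that break down cyclic nucleotides in MSNs. Pde10a had 526 to 912 CPM (median 673) in carriers and 806 to 1136 CPM (median 949.7) in Htt+/+ mice, with a log2 fold change of -0.33 (SE 0.0692, adjusted p = 0.0222). Pde1b had 1346.1 to 1844 CPM (median 1418) in carriers and 1811 to 2034 CPM (median 1973.4) in Htt+/+ mice, with a log2 fold change of -0.26 (SE 0.0597, adjusted p = 0.0463). For both, the upper carriers reached the lower part of the Htt+/+ range. Members that did not pass included Arpp21, a further substrate of protein kinase A, with a log2 fold change of -0.28, and Adcy5, the main adenylyl cyclase of the striatum, with -0.22 (adjusted p = 0.104). Prkar1b, a regulatory subunit of protein kinase A, had 0.15 (adjusted p = 0.0937) and was the member of the dopamine and DARPP-32 signalling list that was nominally higher.

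Genes of indirect-pathway MSNs gave 2 calls. Of 9 members, these 2 were lower and 6 were nominally lower, with a median of -0.23. Penk, the precursor of the enkephalin peptides, had 996 to 1671 CPM (median 1167) in carriers and 1780.0 to 2068 CPM (median 1949) in Htt+/+ mice. The log2 fold change was -0.49 (SE 0.0993, adjusted p = 0.0177), and the groups did not overlap. Gpr6, an orphan G-protein-coupled receptor of these neurons, had 64.6 to 98.7 CPM (median 71.3) in carriers and 95.1 to 112 CPM (median 98.5) in Htt+/+ mice, and 1 A carrier lay inside the Htt+/+ range. The log2 fold change was -0.33 (SE 0.0656, adjusted p = 0.0159). Drd2, the D2 dopamine receptor, had 152 to 211 CPM in carriers and 209.5 to 273 CPM in Htt+/+ mice and missed the threshold with -0.23 (adjusted p = 0.0501), and without HttQ111/+ replicate 3 Drd2 had -0.14. Adora2a, the adenosine receptor of these cells, had -0.32 (adjusted p = 0.0946). The summed level of the 9 indirect-pathway genes was 1756 to 2654 CPM (median 1959) in carriers and 2756 to 3139 CPM (median 3028) in Htt+/+ mice. By this sum 7 of 7 carriers lay below the lowest Htt+/+ mouse. Penk alone had medians of 1167 and 1949 CPM, so the sum mostly follows Penk. The same count was 6 of 7 for the sum of MSN transcription factors, 5 for dopamine and DARPP-32 signalling and 4 for direct-pathway MSN genes.

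Direct-pathway MSN genes gave 1 call. Of 11 members tested, Drd1a was called and 2 were nominally lower, with a median of -0.06. Tac1, which encodes substance P, had a log2 fold change of 0.03 and Pdyn, which encodes dynorphin, had -0.06, while Chrm4, the M4 muscarinic receptor, had -0.10. Ebf1, a transcription factor of these cells, had -0.92 with a large SE of 0.388 (adjusted p = 0.360). Whether the indirect and the direct list differ in their effect was not tested. Their members share the same libraries.

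Rgs9 and Homer1 were also lower. Rgs9 encodes a regulator of G-protein signalling that is concentrated in the striatum and shortens the response to dopamine receptors. It had 562 to 844 CPM (median 634) in carriers and 799 to 923 CPM (median 836) in Htt+/+ mice, with a log2 fold change of -0.26 (SE 0.0531, adjusted p = 0.0177). In the list of regulators of G-protein signalling, 16 genes were tested, 1 was called and 3 were nominally lower and 1 higher. Among 40 glutamate receptors and postsynaptic scaffolds, Homer1 was the 1 called gene, and the median was -0.02. Homer1, which links metabotropic glutamate receptors to the scaffold and has an activity-induced short form, had 232 to 386 CPM (median 279) in carriers and 362 to 567 CPM (median 419.6) in Htt+/+ mice. Its log2 fold change was -0.33 (SE 0.0682, adjusted p = 0.0222), with a narrow overlap of the groups. With 1 library left out at a time, Ppp1r1b, Penk, Gpr6 and Rgs9 stayed past the threshold in 14 of 15 fits, Pde10a in 13, Drd1a and Pde1b in 6 and Homer1 in 5. The fit that ended the first 4 calls was that without HttQ111/+ replicate 3, in which Ppp1r1b had -0.22 (adjusted p = 0.140) and Penk -0.40 (adjusted p = 0.147). Outside these lists, Baiap2 (IRSp53), an actin regulator of dendritic spines, fell by 0.14 and Neto2, an auxiliary subunit of kainate receptors, fell by 0.35 on the log2 scale, in 1 and 5 of 15 such fits past the threshold.

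**Figure D1:**
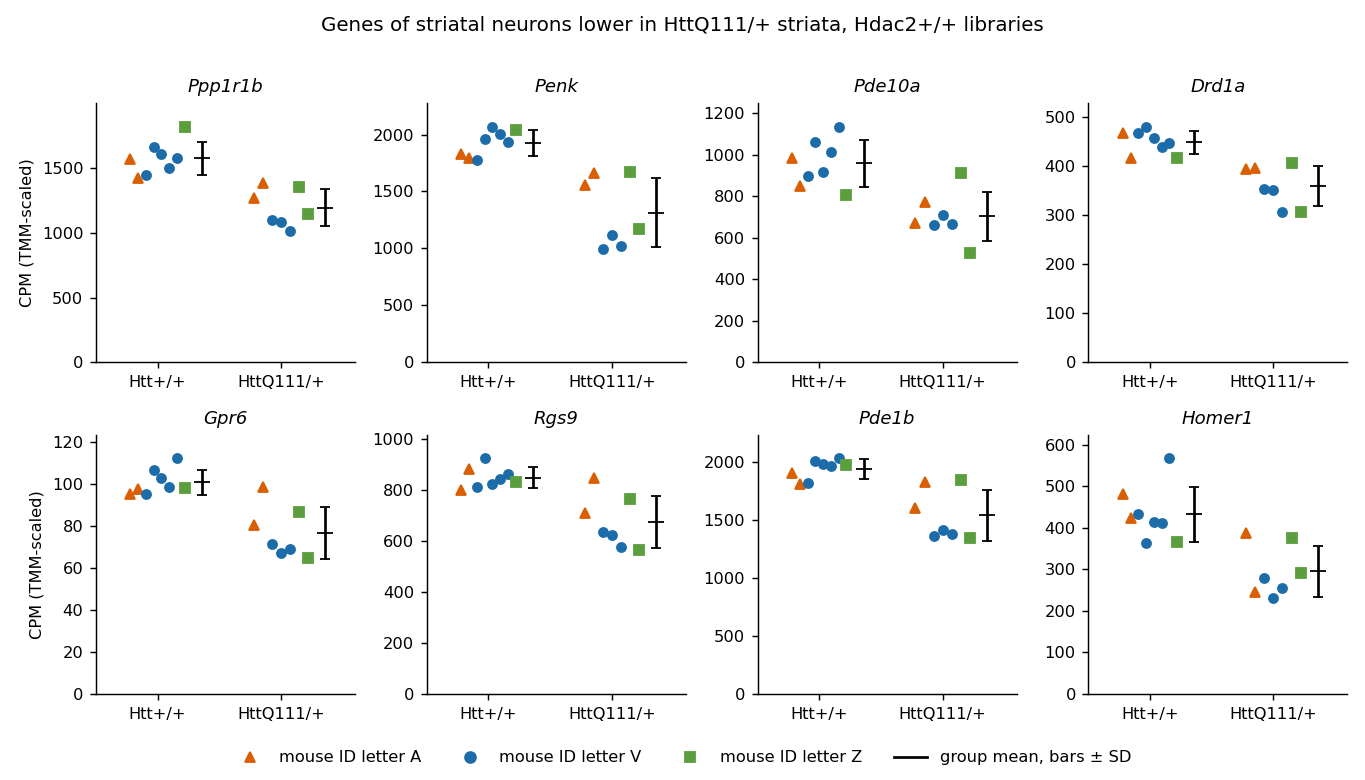
Levels in CPM (linear axes from 0) of 8 called genes that were lower in HttQ111/+ striata, with 1 symbol per mouse, its shape and colour giving the mouse ID letter, and the group mean with SD beside the points (8 Htt+/+ and 7 HttQ111/+ mice). Ppp1r1b, Penk and Drd1a show no overlap between the groups, and the lowest carrier is a V or Z mouse in all 8 panels.

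Promoters of 4 of these called genes are shown because cyclic AMP acts on transcription through the element TGACGTCA (its core TGACG), and because the falling genes hold several parts of the cyclic AMP pathway. The sequences are from RefSeq (GRCm38.p6), run 5′ to 3′ on the strand of the gene from 250 bases before to 50 bases after its start, and have TGACG or its reverse complement CGTCA in capitals. Gpr6 (chr10:41072241-41072540, minus strand) holds the full element, Homer1 (chr13:93303507-93303806, plus strand) holds 3 separate cores, Drd1a (chr13:54055609-54055908, minus strand) holds none, and Syp (chrX:7638330-7638629, plus strand), a rising gene, is set beside them and also holds none.
Gpr6: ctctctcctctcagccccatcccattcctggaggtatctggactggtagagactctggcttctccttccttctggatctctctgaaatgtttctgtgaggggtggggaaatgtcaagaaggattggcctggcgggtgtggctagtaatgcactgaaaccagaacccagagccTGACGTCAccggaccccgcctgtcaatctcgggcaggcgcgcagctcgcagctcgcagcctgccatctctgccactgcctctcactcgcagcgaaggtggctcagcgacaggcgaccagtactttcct
Homer1: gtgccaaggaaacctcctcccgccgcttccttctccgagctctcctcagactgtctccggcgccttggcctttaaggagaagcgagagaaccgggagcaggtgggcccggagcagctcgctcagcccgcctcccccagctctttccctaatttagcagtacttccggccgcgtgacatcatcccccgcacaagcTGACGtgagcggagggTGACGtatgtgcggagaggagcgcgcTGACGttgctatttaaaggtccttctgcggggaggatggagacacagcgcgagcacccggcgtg
Drd1a: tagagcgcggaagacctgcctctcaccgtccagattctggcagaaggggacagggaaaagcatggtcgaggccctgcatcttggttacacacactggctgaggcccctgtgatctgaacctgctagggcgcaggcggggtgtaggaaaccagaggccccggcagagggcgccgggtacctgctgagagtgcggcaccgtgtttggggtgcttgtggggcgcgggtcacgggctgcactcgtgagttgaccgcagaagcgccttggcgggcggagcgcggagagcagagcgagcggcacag
Syp: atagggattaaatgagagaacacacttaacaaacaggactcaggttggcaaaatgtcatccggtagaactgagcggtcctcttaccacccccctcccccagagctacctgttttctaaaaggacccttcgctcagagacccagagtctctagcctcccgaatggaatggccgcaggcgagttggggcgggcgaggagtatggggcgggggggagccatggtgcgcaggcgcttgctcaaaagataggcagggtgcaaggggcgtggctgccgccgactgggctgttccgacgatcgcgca
A promoter of this kind was matched for 12202 of the 17133 genes tested, for 24 of 38 falling genes and for 27 of 31 rising genes, and Ppp1r1b and Penk are not among them. TGACGTCA, searched on both strands, was present in 3.37% of all matched promoters, in 2 of the 24 falling ones (8.33%, Gpr6 and B230354K17Rik) and in 0 of the 27 rising ones. The core TGACG, which the full element contains, was in 33.4% of all, 29.2% of falling (7 of 24) and 18.5% of rising promoters. Pde10a, Pde1b and Rgs9, falling genes that are matched but not printed, held 0 copies of the core. The 4 printed promoters are therefore examples and do not stand for the falling genes. GGGCGG was in 66%, 58.3% and 51.9%, CCAAT in 42.2%, 66.7% and 29.6%, and TATAAA in 9.16%, 25% and 7.41% of all, falling and rising promoters. These shares are descriptions of the letters in these windows and carry no test.

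MSN transcription factors had small values of both signs. None of the 16 members was called by edgeR's quasi-likelihood test or limma-voom and 1 was called, lower, by DESeq2, and at a nominal p under 0.05, 7 were lower and 4 higher, with a median of -0.09. Lower values included Meis2 at -0.13 (adjusted p = 0.110), Rxrg, a retinoid receptor, at -0.22 (adjusted p = 0.271) and Bcl11b (Ctip2), which MSNs need to differentiate, at -0.14 (adjusted p = 0.308). Mef2c at 0.16 and Foxp2 at 0.09 had the opposite sign. Without HttQ111/+ replicate 3 Rxrg had -0.12, without HttQ111/+ replicate 7 Mef2c had 0.11 and without Htt+/+ replicate 2 Foxp2 had 0.055. The summed level of the 16 was 2244 to 2896 CPM in carriers and 2751 to 3083 CPM in Htt+/+ mice, and 6 carriers lay below the lowest Htt+/+ mouse.

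All 21 immediate-early genes, which neurons switch on within minutes of activity, had a log2 fold change below 0, beside 49% of all genes tested. Their median was -0.23, and 1 of them, Homer1, was called. The 21 share the same libraries, so they are not separate observations. At a nominal p under 0.05, 5 of the 21 were lower. Egr1 had -0.23 (adjusted p = 0.302), Egr2 had -0.54 (adjusted p = 0.414) and Jun had -0.26 (adjusted p = 0.308). Single mice varied widely in these genes, and without HttQ111/+ replicate 3 Egr1 had -0.14 and Egr2 -0.34, while without Htt+/+ replicate 2 Egr2 had -0.87. Egr2 ranged from 3.27 to 34.2 CPM in the A carriers, 16.4 to 22.4 CPM in the Z carriers and 1.74 to 13.7 CPM in the V carriers, against 18.7 to 49.4 CPM over the V Htt+/+ mice.

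Calcium signalling genes gave nominal differences only. Of 32 members tested, none was called by edgeR's quasi-likelihood test or limma-voom and 1 was called, lower, by DESeq2. At a nominal p under 0.05, 14 were lower and 1 higher, with a median of -0.09. The lowest p values were those of Atp2b1, a calcium pump of the plasma membrane, at -0.22 (adjusted p = 0.0937), Ryr1, a calcium release channel, at -0.45 (adjusted p = 0.128), Itpka, an inositol trisphosphate kinase, at -0.18 (adjusted p = 0.145) and Hpca, the calcium sensor hippocalcin, at -0.21 (adjusted p = 0.173). Hpca had -0.13 without HttQ111/+ replicate 3 and -0.32 (adjusted p = 0.0109) without Htt+/+ replicate 2.

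When the 2 A-letter Htt+/+ mice of this comparison and the A-letter Htt+/+ Hdac2D/D mouse were left out of the model, the count of calls rose over all genes, to 428 of 17176 (2.49%, with 0.972% higher and 1.52% lower), and also in these lists. For dopamine and DARPP-32 signalling, 14 of 24 were then called lower and 1 higher. Among indirect-pathway MSN genes 6 of 9 were called lower, among MSN transcription factors 4 lower and 1 higher of 16, among immediate-early genes 9 lower of 21, and among calcium signalling genes 5 lower of 32. In the fit to the 15 libraries alone with 4 surrogate variables, none of these was called, and 14 of 24 genes of dopamine and DARPP-32 signalling and 17 of 21 immediate-early genes were nominally lower.

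Of the genes that rose, several act at synapses. Syp encodes synaptophysin, a membrane protein of synaptic vesicles. It had 487 to 718 CPM (median 579.6) in carriers and 450.2 to 522 CPM (median 488) in Htt+/+ mice, with a log2 fold change of 0.20 (SE 0.0333, adjusted p = 0.00432). Syt5, a synaptotagmin of vesicles, rose by 0.14 (adjusted p = 0.0344). Among 37 synaptic vesicle and release genes, these 2 were called higher, 6 were nominally higher and 2 lower, and the median was 0.03. Syt2, the calcium sensor of fast release, had -0.30 and was not called (adjusted p = 0.131). Lrrtm4, a leucine-rich protein that organizes excitatory synapses, had 49.7 to 66.6 CPM (median 55.2) in carriers and 42.9 to 53.3 CPM (median 46.7) in Htt+/+ mice and rose by 0.22 (SE 0.0431, adjusted p = 0.0133). Olfm3, a secreted olfactomedin protein of neurons, rose by 0.30 (adjusted p = 0.0394). The 2 groups overlapped in each of these genes, and the upper carriers stood above the Htt+/+ range. The highest values of Syp and Olfm3, 718 and 66.0 CPM, were those of HttQ111/+ replicate 7, which also had the highest cortical markers. Without that mouse Syp had 0.18 (adjusted p = 0.0153) and Olfm3 0.24 (adjusted p = 0.135).

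Genes of the cell surface and of adhesion were a further part of the rising set. Cd200, a neuronal ligand that restrains microglia, had 60.6 to 76.5 CPM (median 71.2) in carriers and 50.1 to 63.0 CPM (median 55.6) in Htt+/+ mice, with a log2 fold change of 0.21 (SE 0.0360, adjusted p = 0.00613). Ildr2, an immunoglobulin-like receptor, had 48.7 to 78.3 CPM (median 62.2) and 31.1 to 58.8 CPM (median 48.6), and rose by 0.34 (SE 0.0571, adjusted p = 0.00413). Dsg2, a desmosomal cadherin, rose by 0.94 (SE 0.157, adjusted p = 0.00413) from a low level, with 1.85 to 5.05 CPM in carriers and 0.449 to 3.33 CPM in Htt+/+ mice. It was the 1 called gene among 39 cadherins, desmosome and tight junction genes, of which 6 were nominally higher and 2 lower. Also higher were the receptor phosphatases Ptprh (0.55, adjusted p = 0.0177) and Ptpro (0.18, adjusted p = 0.0370), Ndst3, which modifies heparan sulfate (0.48, adjusted p = 0.0300), and Timp2, an inhibitor of matrix metalloproteinases (0.16, adjusted p = 0.0496). Syp, Cd200, Ildr2 and Dsg2 passed the threshold in all 15 fits that left out 1 library, Lrrtm4 in 12, Ptprh and Ndst3 in 10, Olfm3 in 8, Syt5 and Ptpro in 7 and Timp2 in 4.

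Clustered protocadherins, which give neurons a surface identity, had none called by edgeR's quasi-likelihood test or limma-voom and 1, higher, by DESeq2. Of the 24, 8 were nominally higher and 2 lower, and the median was 0.09. Pcdhb13 had 0.44 (adjusted p = 0.103) and Pcdhb9 0.43 (adjusted p = 0.111), while Pcdhb7 had -0.33 and Pcdhb6 -0.35. Their coding sequences are near copies of each other, and since unique alignments were counted, reads that match several members are not in the counts, which leaves these values uncertain. Axon guidance genes likewise had none called by edgeR or limma-voom and 1, higher, by DESeq2, with 10 of 67 nominally higher and 2 lower, with a median of 0.05. The secreted guidance cue Slit2 had 0.45 (adjusted p = 0.113).

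Receptors and channels were mixed. Htr2a, the serotonin 2A receptor, had 8.90 to 19.7 CPM (median 14.3) in carriers and 5.94 to 15.3 CPM (median 9.87) in Htt+/+ mice, with a log2 fold change of 0.52 (SE 0.122, adjusted p = 0.0474). Htr2c had 0.25 (adjusted p = 0.0804). Scn9a, a voltage-gated sodium channel, had 10.4 to 23.7 CPM (median 15.7) and 5.97 to 13.7 CPM (median 9.64), and rose by 0.50 (SE 0.115, adjusted p = 0.0456), although 11.1% as many counts fell in genes that overlap it. In both, carriers and Htt+/+ mice overlapped, and each stayed past the threshold in 3 of 15 fits without 1 library. Without HttQ111/+ replicate 3, Scn9a had 0.27 (adjusted p = 0.752) and Htr2c 0.16. Trpv2, a cation channel, rose by 0.37 (adjusted p = 0.0194). Among 20 GABA receptor and synthesis genes none was called by edgeR or limma-voom and 1, higher, by DESeq2, 4 were nominally higher and 1 lower, and Gabra3, a GABA-A receptor subunit, had 0.22 (adjusted p = 0.0576). Of 77 potassium channel subunits, none was called by edgeR or limma-voom, 1 higher and 1 lower by DESeq2, and 7 were nominally higher and 8 lower.

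The remaining rising genes outside chromosome 17 are in other families. Sh3bgrl, a small adaptor protein, had 111 to 141 CPM in carriers and 101 to 117 CPM in Htt+/+ mice, with 0.14 (adjusted p = 0.0177). Myadm, a membrane protein first found in myeloid cells, rose by 0.23 (adjusted p = 0.0226), Pcyt1b, a phosphatidylcholine synthesis enzyme, by 0.18 (adjusted p = 0.0405), Limk2, a kinase that regulates actin, by 0.13 (adjusted p = 0.0439) and Intu, a planar polarity and cilium gene, by 0.25 (adjusted p = 0.0439). Amn, the membrane partner of cubilin, was the called gene whose carriers all lay above the Htt+/+ range, at 0.759 to 1.27 CPM against 0.255 to 0.745 CPM, with 0.84 (SE 0.195, adjusted p = 0.0452). The noncoding RNA Miat rose by 0.42 (adjusted p = 0.0439), with HttQ111/+ replicate 7 at 169.7 CPM and a carrier median of 63.0 CPM, and without that mouse it had 0.36 (adjusted p = 0.0575). Vill, a villin-like actin-binding protein, rose by 1.21 and Tceal5 by 0.15. In the 15 fits without 1 library, Trpv2 passed in 13, Sh3bgrl in 12, Myadm in 9, Vill in 8, Pcyt1b and Miat in 5, Tceal5 in 4, Limk2 and Amn in 3 and Intu in 2.

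**Figure D2:**
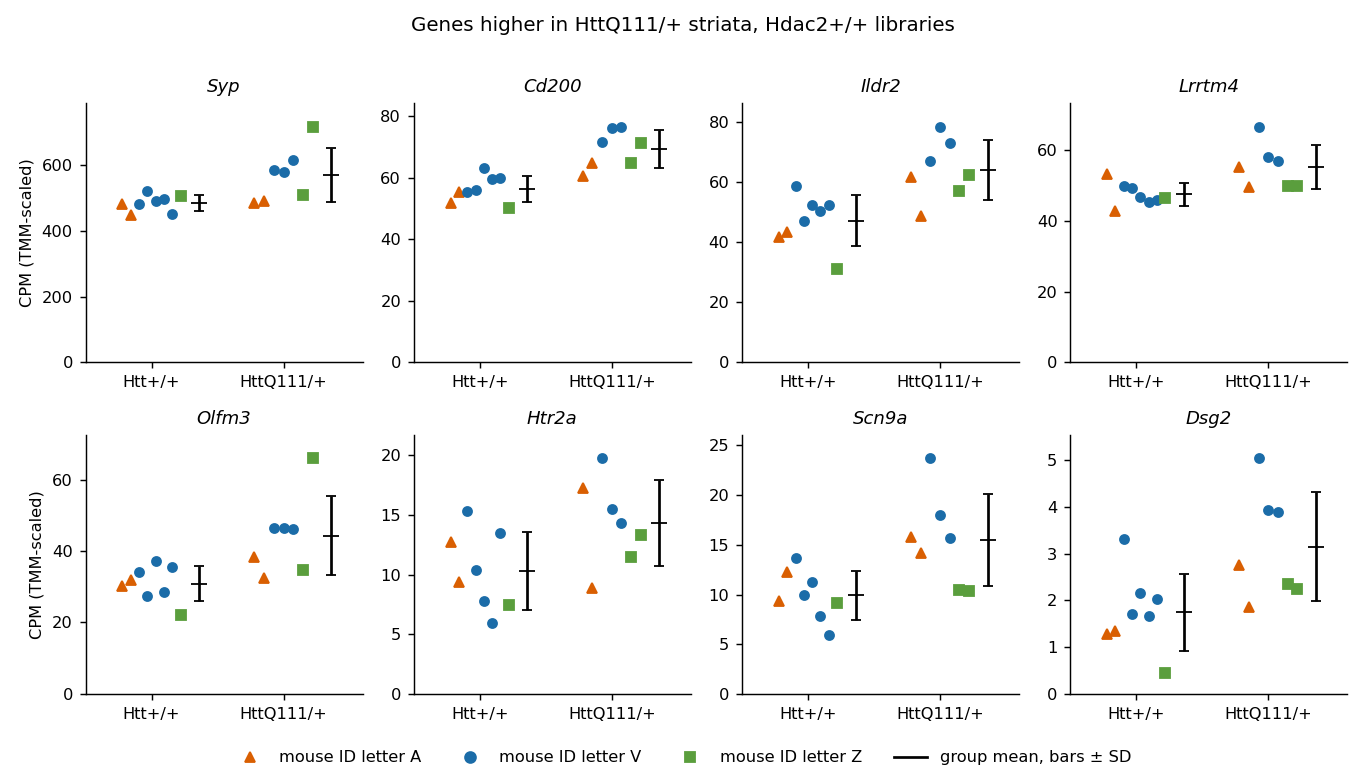
Levels in CPM (linear axes from 0) of 8 called genes that were higher in HttQ111/+ striata, with 1 symbol per mouse by ID letter and the group mean with SD beside the points (8 Htt+/+ and 7 HttQ111/+ mice). The groups overlap in all 8 panels, with the upper carriers above the Htt+/+ range and a wide spread in Syp, Olfm3 and Scn9a.

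Enzymes of metabolism and of signalling lipids were among the falling genes. Gpd1, the cytosolic glycerol-3-phosphate dehydrogenase, had 46.4 to 66.5 CPM (median 57.8) in carriers and 64.3 to 81.0 CPM (median 70.8) in Htt+/+ mice, with a log2 fold change of -0.36 (SE 0.0586, adjusted p = 0.00413). The groups overlapped by a small margin. Pdp1, the phosphatase that activates pyruvate dehydrogenase, fell by 0.29 (adjusted p = 0.0177), and Ckmt1, a mitochondrial creatine kinase, by 0.14 (adjusted p = 0.0459). Inpp5j, a phosphoinositide 5-phosphatase, had 47.9 to 79.9 CPM (median 67.9) and 70.2 to 111 CPM (median 84.3), and fell by 0.30 (SE 0.0546, adjusted p = 0.00679). In the list of oxidative phosphorylation genes, by contrast, none of 103 was called by edgeR, limma-voom or DESeq2, and 4 were nominally higher and 2 lower, which is 5.83% of the list beside 10.9% of all genes.

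Dmkn, a secreted protein known from epidermis, had 13.3 to 19.8 CPM (median 15.4) in carriers and 21.8 to 27.9 CPM (median 23.2) in Htt+/+ mice, with no overlap, and fell by 0.42 on the log2 scale (SE 0.0820, adjusted p = 0.0142). Its neighbour Sbsn on chromosome 7 fell by 0.31, and overlapping genes hold 64.6% as many counts as Sbsn. Myo5c, an unconventional myosin, fell by 0.64 (SE 0.109, adjusted p = 0.00432), with 3.05 to 6.53 CPM in carriers and 4.73 to 8.85 CPM in Htt+/+ mice. Ptprv, a receptor phosphatase, fell by 0.44 (SE 0.0855, adjusted p = 0.0132), with 18.98 to 44.2 CPM and 33.7 to 50.8 CPM. Fibcd1, a receptor for acetylated groups, had 13.7 to 21.5 CPM (median 15.8) in carriers and 16.6 to 26.0 CPM (median 18.4) in Htt+/+ mice, with -0.33 (SE 0.0546, adjusted p = 0.00413). Plk5, a polo-like kinase of neurons, fell by 0.50, the kinase Vrk1 by 0.46, Ppp4r4, a regulatory subunit of protein phosphatase 4, by 0.23 and Ccm2, a scaffold known from blood vessels, by 0.23. Among the falling genes of these functions, Gpd1 passed in 15 of 15 fits without 1 library, Dmkn, Inpp5j and Myo5c in 14, Ptprv in 13, Fibcd1 in 12, Ppp4r4 in 9, Pdp1 and Vrk1 in 8, Plk5 in 6, Ccm2 and B3gnt2 in 5 and Ckmt1 and Sbsn in 3. B3gnt2, a glycosyltransferase, and RP23-242C19.7 fell by 0.24 and 0.23 but occupy overlapping intervals on chromosome 11 and can share reads.

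Markers of other striatal cell types changed little. Aqp4, the water channel of astrocytes, was lower, with 99.4 to 128 CPM (median 112) in carriers and 113 to 145 CPM (median 126) in Htt+/+ mice and a log2 fold change of -0.26 (SE 0.0503, adjusted p = 0.0122). It was the 1 astrocyte marker of 10 that was called, the median of the 10 was -0.01, and Gfap had -0.24. The summed astrocyte level was 2290.2 to 2845 CPM in carriers and 2506 to 3011 CPM in Htt+/+ mice. None of the markers of microglia (10), oligodendrocytes (12) or endothelial and mural cells (10) reached even a nominal p under 0.05, and of 15 interneuron markers 1 did, lower, with a median of 0.01. Summed microglial levels were 461 to 565 CPM in carriers and 455 to 586 CPM in Htt+/+ mice.

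Cortical neuron markers differed between libraries. Their summed level was 549 CPM in HttQ111/+ replicate 7, against at most 107 CPM in the Htt+/+ mice and a carrier median of 64.6 CPM, and 2 carriers in all exceeded the Htt+/+ range. None of the 11 tested was called by edgeR, limma-voom or DESeq2, 3 were nominally lower in the fit, and their median was -0.24 with the surrogate variables and 1.21 without covariates (cortical projection neurons). Without HttQ111/+ replicate 7, 68 genes were called, 52 of them among the 69. Choroid plexus markers were at 220 CPM summed in 1 Htt+/+ mouse (replicate 1) against a median of 43.3 CPM. The blood markers, 5 genes with 2 nominally higher, had a median of 0.33 and summed levels of 106 to 211 CPM in carriers and 112 to 210.1 CPM in Htt+/+ mice. The part of these cells in the results was not tested beyond the fit without replicate 7.

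**Figure D3:**
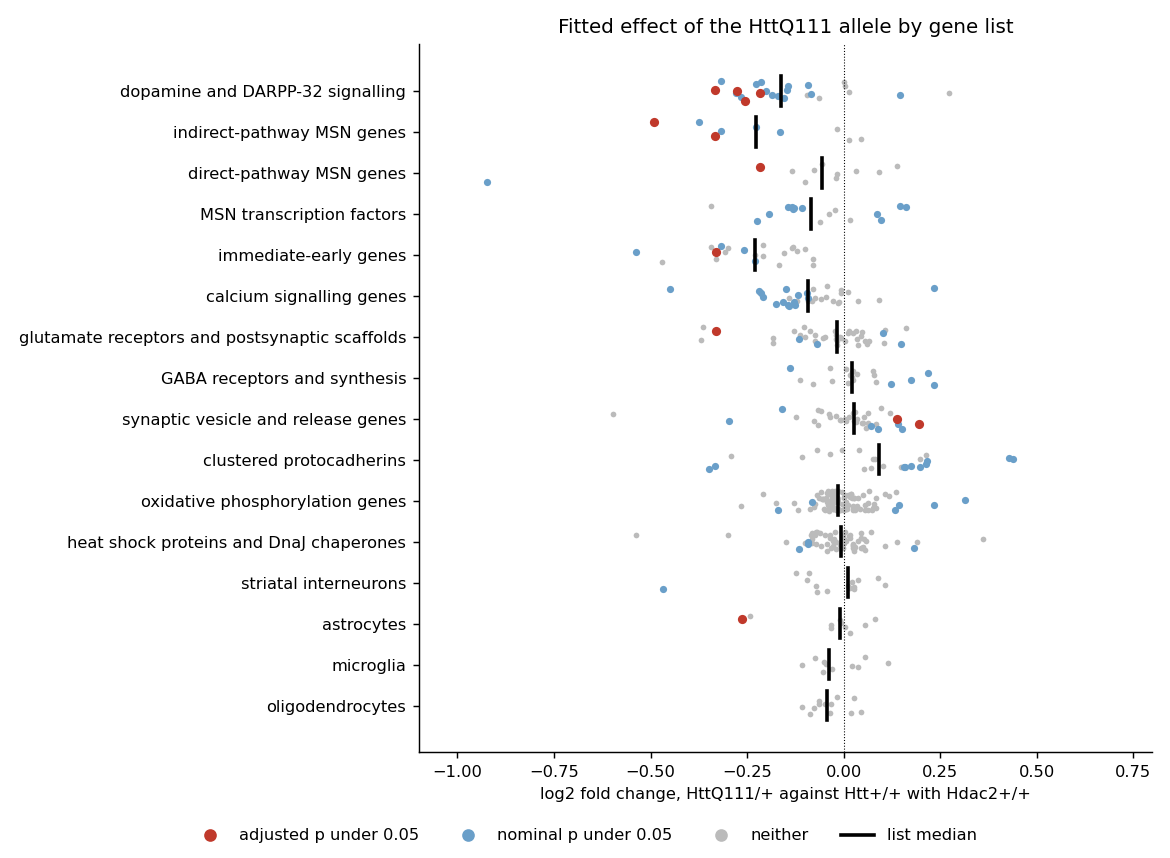
Fitted log2 fold changes (HttQ111/+ against Htt+/+, both with Hdac2+/+) of the members of 16 gene lists, each point a gene, with genes at an adjusted p under 0.05 in red, at a nominal p under 0.05 in blue and the list median as a black bar. The medians of the dopamine and DARPP-32, indirect-pathway and immediate-early lists lie below 0, whereas those of oxidative phosphorylation, chaperones, interneurons, astrocytes and microglia lie close to 0.

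Other functions gave few differences. Of 65 heat shock and DnaJ chaperones 1 was nominally higher and 3 lower, and of 47 proteasome subunits 1 was higher and 1 lower, with none called by edgeR or limma-voom and 1 chaperone higher and 1 lower by DESeq2. Of 84 cytosolic ribosomal proteins, Rps18 alone was called, and its interval overlaps that of Vps52. Mismatch repair genes and Fan1, which act on the length of CAG repeats in somatic cells, had none of 11 called by any of these tests, and 2 were nominally higher. Of 24 histone deacetylase and Polycomb genes none was called by any of them, with 1 nominally higher and 3 lower. Of 31 genes of neuropeptides and their receptors, Penk included, Penk alone was called by edgeR. At a nominal p under 0.05, 1 was higher and 2 lower. The median of the 31 was 0.04, with values from -0.49 to 0.37.

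Chromosome 17 held 19 of the 69 called genes, of which 16 lay below 45 Mb. In that interval 16 of 529 genes tested were called (3.02%, 7 higher and 9 lower). From 45 Mb on, 3 of 298 were called (1.01%), and on all other chromosomes 50 of 16306 (0.307%). Within 10 Mb of Htt on chromosome 5, around the knock-in locus, none of 163 genes was called (edgeR quasi-likelihood), and 23 had a nominal p under 0.05 (14.1%).

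The 2 A-letter Htt+/+ mice, the same mice that carry 1 floxed allele, stood apart on chromosome 17. In 34 of the 529 genes below 45 Mb (6.43%), both lay outside the range of the other 13 mice of the comparison on the same side, against 1.76% of genes on other chromosomes and 3.02% on chromosome 17 from 45 Mb. Of the 16 called genes below 45 Mb this held for 10, with the A mice above in 6 and below in 4. C4a, a copy of complement component 4, had 18.8 and 22.6 CPM in the 2 A-letter Htt+/+ mice and 3.58 to 8.26 CPM in the other 13, and C4b, the other copy, had 124 and 159 CPM against 24.7 to 87.4 CPM. Since C4a and C4b are near-identical and unique alignments were counted, reads that match both are in neither count, and both values are uncertain.

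In the opposite direction, the ribosomal gene Rps18 had 15 and 16 CPM in the 2 A-letter Htt+/+ mice and 26.0 to 30.9 CPM in the other 13. The cytochrome gene Cyp4f14 had 5.20 and 5.32 CPM against 8.69 to 12.2 CPM. H2-T22, a nonclassical class I gene of the major histocompatibility complex, had 7.84 and 8.75 CPM against 12.1 to 18.5 CPM, and its neighbour in that complex, H2-Ob, a class II gene, was above in the A mice with 2.64 and 3.28 CPM against 0.779 to 1.49 CPM. The A carriers are among the 13, and the A-letter Htt+/+ Hdac2D/D mouse had 21.2 CPM of C4a and 14.3 CPM of Rps18. Bricd5, C920025E04Rik and D930048G16Rik were also among the 10. Overlapping genes hold several times the counts of Bricd5, C920025E04Rik and Rps18, so their values may belong to those neighbours.

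Most of these calls were not seen in the other mice. Without the A-letter Htt+/+ mice, Cyp4f14 had a log2 fold change of -0.086 in place of 0.47 and Rps18 -0.015 in place of 0.41, and 3 of the 16 genes were called. Without Htt+/+ replicate 2 alone, Cyp4f14 had 0.30 (adjusted p = 0.213) and C4b -0.72 (adjusted p = 0.260) in place of -1.11. Pde10a, which lies at 8.5 Mb in the same interval, was different. Its A-letter Htt+/+ mice, at 849 and 983 CPM, lay below and within the range of the V Htt+/+ mice, 900.0 to 1136 CPM, and Pde10a passed the threshold in 28 of 34 alternatives with log2 fold changes of -0.47 to -0.27. Other called genes of the interval were Baiap3 (0.51, its interval overlapping that of Tsr3), the serine protease Prss41 (-1.11), Neurl1b, a ligase for Notch ligands (0.29), and Flot1, a membrane raft protein (0.19), in which the A mice did not stand apart by this measure. The somatostatin receptor Sstr5 was also called, at -1.82, and its levels fell into a low and a high class. Of the carriers, 5 of 7 had 0.699 to 1.87 CPM of Sstr5 and the other 2 had 6.53 and 6.77 CPM, whereas 6 of 8 Htt+/+ mice had 7.78 to 10.6 CPM and the other 2 had 0.586 and 1.53 CPM, so the fitted value describes this split. From 45 Mb on, Foxp4, a forkhead factor, rose by 0.29, while Slc29a1, a nucleoside transporter, fell by 0.30 and B230354K17Rik by 0.24. In 2 of these 3 the A-letter Htt+/+ mice again stood apart, below in Foxp4 with 14.8 and 15 CPM against 15.6 to 22.9 CPM, and above in B230354K17Rik with 34 and 35.1 CPM against 22.6 to 27.2 CPM. From CPM without covariates, B230354K17Rik had a log2 difference of -0.48 among A mice, -0.077 among V mice and 0.028 among Z mice.

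On the other chromosomes, 6 called genes had the A-letter Htt+/+ mice on 1 side of the rest, all above. These were the processed ribosomal gene copy Gm10260, with 22.8 and 23.9 CPM against 0.965 to 1.93 CPM, and Gpd1, Aqp4, Fibcd1, Ppp4r4 and Ckmt1, with much smaller gaps. In Gpd1, for instance, the A-letter Htt+/+ mice had 79.3 and 81.0 CPM, and the V Htt+/+ mice had 64.3 to 76.8 CPM against 46.4 to 47.9 CPM in the V carriers. The ribosomal pseudogene Rps2-ps13 was either below 2 CPM or above 50 CPM in each mouse, with 2 of 7 carriers and 6 of 8 Htt+/+ mice in the upper class, and its fitted log2 fold change of -4.36 describes this split.

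**Figure D4:**
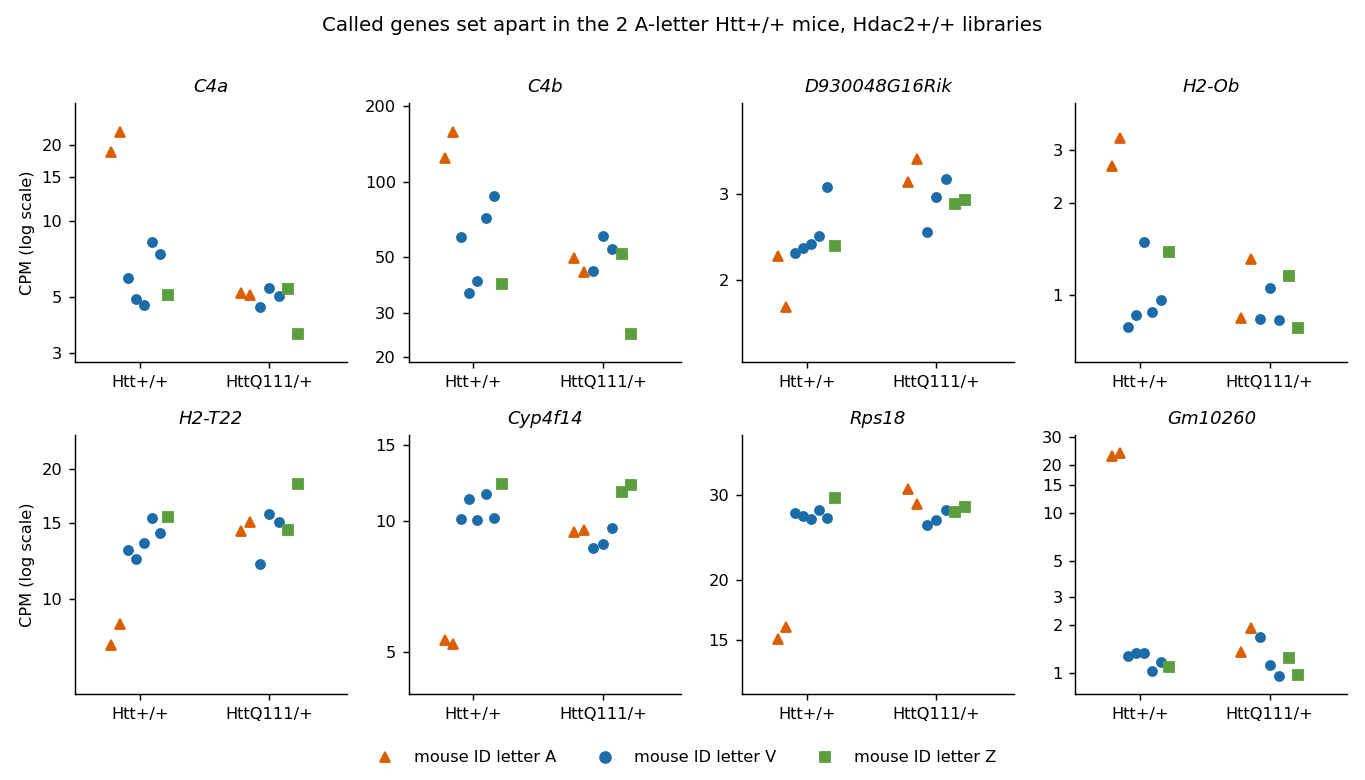
Levels in CPM (log axes) of 8 called genes in which both A-letter Htt+/+ mice (orange triangles) lie outside the range of the other 13 mice (by a small margin in D930048G16Rik), 7 of them on chromosome 17 below 45 Mb and Gm10260 on chromosome 13. The A-letter HttQ111/+ mice sit with the V and Z mice, so the difference does not follow the letter alone.

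Directions within ID letters, extraction days and sexes were recomputed from CPM without covariates. The genes were called in these same mice, which favours the same sign in each part, so the counts are a description only. For the 53 called genes outside chromosome 17 below 45 Mb, the sign was the same among A mice in 53, among V mice in 53 and among Z mice in 50. It was the same in 53, 52 and 52 on the 3 extraction days, and in 53 in males and in females. For the 16 genes inside the interval it was the same in 16 of the A, 13 of the V and 11 of the Z mice. The Z comparison has a single Htt+/+ mouse.

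V carriers have the longest repeats. Their mean was further in the effect's direction than that of A and Z carriers in 49 of the 53 genes outside the interval. In 24 of these genes the V carriers did not overlap the other carriers. Over all 16604 genes tested outside the interval, taken in the direction of each gene's fitted effect, the first held in 58.5% and the second in 1761 genes (10.6%). The same comparison of V with A and Z means among Htt+/+ mice pointed the same way in 39 of 53, and its share over all genes was not computed. The 53 genes were called in these same mice, which can favour the carrier counts. Penk had 996, 1119 and 1024 CPM in the V carriers, 1671 and 1167 CPM in the Z carriers and 1559.5 and 1664 CPM in the A carriers. Among Htt+/+ mice Penk had 1780.0 to 2068 CPM in V, 1828 and 1795 CPM in A and 2039 CPM in the Z mouse. Repeat length, letter and descent of the mice cannot be told apart here.

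The 20 Hdac2D/D libraries hold the same allele in mice that belong to neither group compared above. Their counts were nevertheless part of the model and its surrogate variables from which the effects with Hdac2 intact were fitted. The values from these Hdac2D/D mice are therefore not an independent check of the called genes. Those mice carry D9-Cre, which is driven by a fragment of Ppp1r1b, and lack Hdac2 in MSNs after the first weeks of life (11 HttQ111/+ mice with repeats of 110 to 144, and 9 Htt+/+ mice). There, 1 of 17110 genes was called (0.00584%), and 1287 had a nominal p under 0.05 (7.52%, with 557 higher, 3.26%, and 730 lower, 4.27%). Of the 69 genes called with Hdac2 intact, 67 had the same sign, and 37 had it at a nominal p under 0.05. The same-sign share over all genes was not computed. These numbers were 51 and 24 for the 53 genes outside chromosome 17 below 45 Mb, and 16 and 13 for the 16 inside. Among the 38 falling genes these numbers were 37 and 27, and among the 31 rising genes they were 30 and 10. The Htt+/+ Hdac2D/D group holds 1 A-letter mouse, with 21.2 CPM of C4a against 5.05 to 8.02 CPM in the others. Its 790 CPM of Pde10a lay within their 680 to 1010 CPM. The part of this mouse in the counts was not tested. All 69 had a smaller effect than with Hdac2 intact, but since they were chosen for their effect there, smaller values elsewhere are to be read as a description only.

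Among the genes that fell, Penk had -0.36 with Hdac2D/D (SE 0.0776), Gpr6 -0.19 (SE 0.0516), Homer1 -0.22 (SE 0.0541) and Pde10a -0.20 (SE 0.0544). Ppp1r1b had -0.20 (SE 0.0417), and the D9-Cre transgene of these mice contains part of this gene, whose share in the counts was not tested. Of the dopamine and DARPP-32 signalling list, 12 of 24 were nominally lower with Hdac2D/D and the median was -0.10, and for the indirect-pathway list 6 of 9 were, with a median of -0.17. The immediate-early list had a median of -0.06 there, with 14 of 21 below 0.

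Of the 31 rising genes, the 21 that were not nominally higher with Hdac2D/D include several with values near 0. Syp had 0.00 (SE 0.0261), Dsg2 0.05 (SE 0.115), Ildr2 0.03 (SE 0.0450), Ptpro 0.01 (SE 0.0307) and Amn 0.00 (SE 0.148), whereas the nominally higher genes include Cd200 with 0.08 (SE 0.0280), Lrrtm4 with 0.09 (SE 0.0351), Htr2a with 0.23 (SE 0.0979), Miat with 0.17 (SE 0.0746) and Limk2 with 0.06 (SE 0.0226). The other 5 lie on chromosome 17 below 45 Mb, among them D930048G16Rik with 0.48 (SE 0.0891), Rps18 with 0.28 and H2-T22 with 0.25. In the A-letter Htt+/+ Hdac2D/D mouse Rps18 had 14.3 CPM, against 26.4 to 30.6 CPM in the other Htt+/+ Hdac2D/D mice. H2-T22 had 11.6 CPM in that mouse against 19.6 to 24.6 CPM, and D930048G16Rik had 1.8 CPM, within the others' 1.75 to 2.89 CPM. The part of that mouse in these effects was not tested. Levels in Hdac2D/D mice were already high for some of the rising genes. Syp averaged 680.0 CPM in HttQ111/+ Hdac2D/D and 685 CPM in Htt+/+ Hdac2D/D mice, above the median of the Hdac2+/+ carriers.

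The difference of the 2 effects was tested over 17346 genes, and 1 was called (0.00577%), with 976 at a nominal p under 0.05 (5.63%). The called gene was Fibcd1, whose effect was lower by 0.43 with Hdac2 intact than with Hdac2D/D (difference -0.43, SE 0.0691, adjusted p = 0.0152). It stayed called in 6 of the 15 fits without 1 library. Its mean level was 17.3 CPM in carriers and 20.5 CPM in Htt+/+ mice with Hdac2 intact, and 11.9 CPM and 11.5 CPM with Hdac2D/D. At a nominal p under 0.05 the difference was found for 40 of the 69 genes, 24 of the 31 rising and 16 of the 38 falling, a count that the choice of these genes by their effect in 1 of the 2 backgrounds favours. Syp, Ildr2 and Dsg2 had differences of 0.19, 0.32 and 0.89, none of which passed the adjusted threshold, while for Ppp1r1b, Penk and Pde10a the differences were -0.08, -0.13 and -0.13.

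**Figure D5:**
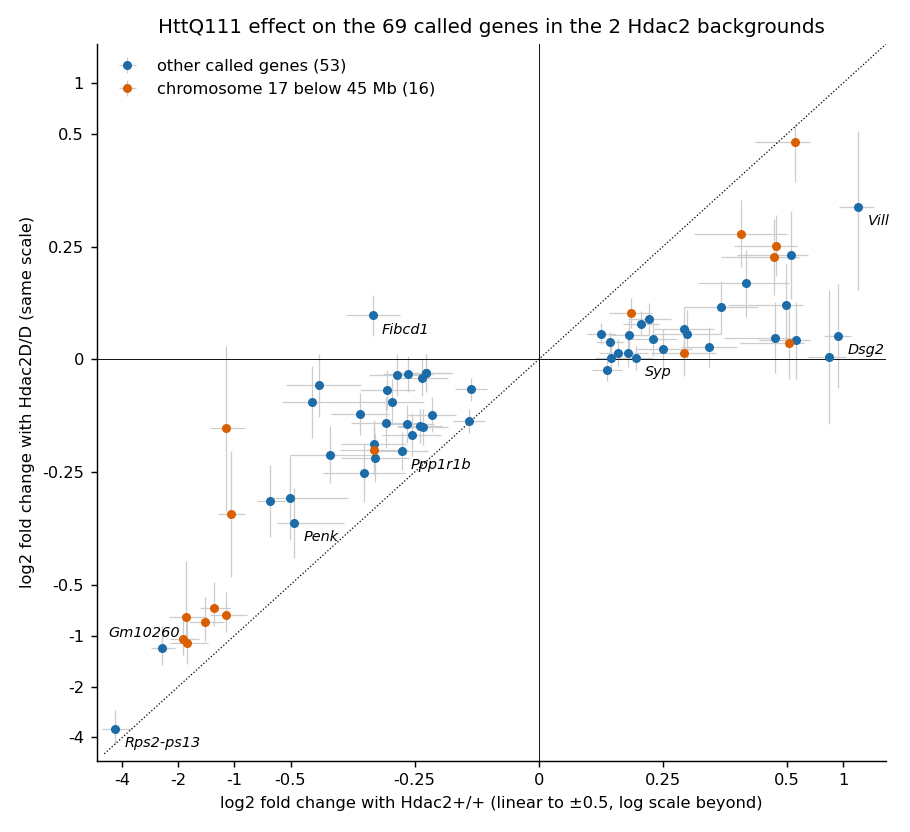
Log2 fold changes of the 69 called genes with Hdac2+/+ (horizontal) and with Hdac2D/D (vertical), with standard errors as grey bars, on axes that are linear to ±0.5 and logarithmic beyond, and with a dotted line of equal effects. Of the 69, 67 have the same sign on both axes, all lie closer to 0 on the vertical axis, Fibcd1 is the gene with a called difference, and the genes of chromosome 17 below 45 Mb are in orange.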

How the data were processed

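The authors made stranded mRNA libraries from striatal RNA, aligned read pairs to GRCm38 with GSNAP and, with multibamcov, counted unique alignments in each Ensembl gene interval, introns included. The deposited values are raw counts, not normalized. Overlapping genes can share reads, and use of strand in the counting is not given in the sources used here. The authors left out 1 Htt+/+ male with signs of DNA contamination.

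Of 39109 entries, 92 ERCC spike-ins, 6152 genes no longer than 250 nt and 2 rRNA genes of the mitochondrion were not used. Counts were scaled by TMM and fitted for all 35 libraries in 1 model of 4 genotypes and 9 surrogate variables from sva 3.50.0, by the older quasi-likelihood form of edgeR 4.0.16, with limma 3.58.1 and DESeq2 1.42.0 as alternatives (R 4.3.3), following the study's methods. The first surrogate variable followed sex (R2 0.834). P-values were adjusted over all genes tested, and the threshold was 0.05. The common biological coefficient of variation was 0.0686. The fit was tested on simulated data.

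Values are given by group for the 12 rising and 12 falling genes of smallest p with ordinary symbols, for called members of each list (otherwise up to 4 of smallest p) and for called genes on chromosome 17 below 45 Mb. Drd2, Arpp21, Adcy5, Prkar1b, Adora2a, Chrm4, Tac1, Pdyn, Bcl11b, Foxp2, Syt2, Pcdhb6 and Gfap were chosen after their values were seen, as was the set of genes shown in plots. Members and lists were chosen with earlier results of these data known. Replicate numbers do not pair the mice: same-numbered mice of the 2 groups had deviations correlated from -0.204 to 0.228. No 2 libraries of a group agreed within sampling noise. Values of some genes are not reported here. Alternatives covered covariates, libraries, scaling, test and filters.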

Additional observations from a re-analysis of the deposited data

Results flagged for a closer look

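For each of 25 genes with values by mouse, the highest and lowest mouse of each group was compared with the next, over 50 groups in all, of which 2 had a mouse far from the others. Chance alone would single out about 1 group in 20. Foxp4 had 18 CPM in HttQ111/+ replicate 6, the next carrier being at 20.9 CPM. Dmkn had 27.9 CPM in Htt+/+ replicate 8, the next mouse being at 23.4 CPM, which lies on the side away from the carriers.

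Fibcd1 is listed because the effect of the HttQ111 allele differed between the Hdac2 backgrounds by a test of the difference itself, at -0.43 on the log2 scale (edgeR quasi-likelihood test, adjusted p = 0.0152). Its level in the A-letter Htt+/+ mice, 24.8 and 26.0 CPM, was above the other 13 mice with Hdac2 intact, and in the fit without the A-letter Htt+/+ mice the difference was not called. The part of those mice in the result was not tested further.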

How the results depend on the processing

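Beside 69 called genes in the comparison with Hdac2 intact, 419 were called with extraction date and 837 with ID letter in place of surrogate variables, 0 in the 15 libraries alone with 4 surrogate variables, 1 there without covariates and 273 there with sex and letter. The count was 428 without the A-letter Htt+/+ mice, 905 without all A-letter mice, 10 in males, 157 in females, 154 by DESeq2, 34 without a count filter, 31 with at least 20 counts and 43 with chromosome 17 below 45 Mb left out. With the replicate block in place of surrogate variables it was 13, and no carrier correlated best with its own number. It stayed within 1.5 times with no covariates or sex (50 each, 20 shared with the 69), DESeq2 size factors (63), limma-voom (54), the newer quasi-likelihood form (76) and short genes kept (58). Without 1 library it ranged from 14 to 174. It moved by over 1.5 times without HttQ111/+ replicates 2 (121), 3 (14), 4 (44) and 5 (31) and Htt+/+ replicates 2 (174), 4 (31) and 9 (37).

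Beside 1 called gene with Hdac2D/D there were 0 with extraction date and in males, 2 with letter, 23 with the replicate block, 7 without the A-letter Htt+/+ mice, 19 in females, 3 with DESeq2 size factors, with at least 20 counts or with short genes, 45 by DESeq2, 5 in the newer form and 4 without a filter. For the difference, beside 1, there were 0 with no covariates, sex, date, the replicate block, no filter, at least 20 counts, in males and without the A-letter mice (either way), 7 with letter, 130 in females, 3 by DESeq2 and, in fits added after seeing the data, 0 to 2 without 1 library. The causes were not tested.

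Of the results for single genes, 2946 kept direction and side of the threshold, 1058 lost and 242 gained the threshold, and 5 reversed. Without the A-letter Htt+/+ mice and without all A-letter mice, Cyp4f14 had -0.086 and -0.069 and Rps18 -0.015 and -0.037, and Gm10260 had 0.10 in the first. List medians kept their sign in all 35 alternatives for dopamine and DARPP-32 signalling (-0.29 to -0.09), indirect-pathway MSN genes (-0.40 to -0.17), MSN transcription factors, calcium signalling and immediate-early genes (-1.08 to -0.15), and in 32 of 35 for direct-pathway MSN genes. Leave-one-out fits of the Hdac2D/D comparison were not run.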
